A study of Homo sapiens with 6 samples.

Results

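The 6 transcripts described here are the mitochondrially encoded mRNAs for subunits of respiratory chain complexes III, IV and V: MT-CYB (ENST00000361789), MT-CO1 (ENST00000361624), MT-CO2 (ENST00000361739), MT-CO3 (ENST00000362079), MT-ATP6 (ENST00000361899) and MT-ATP8 (ENST00000361851). They were taken by identifier from the mRNA table, and all 6 were listed among its 102731 transcripts. The table compares PC3, a human prostate cancer cell line labelled as sensitive to docetaxel, with PC3-DR, a docetaxel-resistant line derived from it, in 3 libraries of total RNA each. Docetaxel is a taxane, a drug that stabilises microtubules and blocks cell division. To make PC3-DR, PC3 went through 5 cycles of 48 h in 4 and 8 nM docetaxel and 12 cycles of 48 h in 8 and 12 nM. The drug was then present throughout, from 10 nM upward in steps of 5 nM to 50 nM, and the cells were held at 40 nM for 1 month. PC3 was grown in DMEM with serum. The labels call the 3 libraries of a group parallel samples and do not say whether they came from separate cultures, so p-values measure the spread between these libraries, which may be technical.

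The mitochondrial genome is transcribed as long precursors from both strands, and these are cut, mostly at tRNAs, into the mature RNAs. Its mRNAs encode membrane-embedded core subunits, while the other subunits of the same complexes come from nuclear genes. Complex III passes electrons from ubiquinol to cytochrome c, complex IV (cytochrome c oxidase) passes them on to oxygen, and complex V (ATP synthase) uses the resulting proton gradient to make ATP. MT-ATP8 and MT-ATP6 lie on a shared mRNA with overlapping reading frames, and MT-CO3 follows them directly in the same precursor.

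Levels are given in FPKM, a read number divided by transcript length and library total. They are thus adjusted for length between genes, but not for how reads were assigned to each gene. The number of reads behind each value was recovered from the values themselves. The inferred totals ran from 14410509 to 16185936 reads in 5 libraries, and PC3-DR replicate 1 had a total of 43153395. That library stood apart across the table: over the 24937 transcripts that reached 1 FPKM in 3 or more libraries, its median log2(FPKM + 1) difference from the mean of the other 5 was -0.55, against between -0.03 and 0.24 for the others. The recovered transcript lengths of the 6 members, 1141 nt for MT-CYB, 1542 nt for MT-CO1, 684 nt for MT-CO2, 784 nt for MT-CO3, 681 nt for MT-ATP6 and 207 nt for MT-ATP8, each equalled the length of the human gene in RefSeq. The same held for all 13 mitochondrial mRNAs. The submitters' processing notes name a mouse genome build, mm9, so no coordinate is given.

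The 6 members fell into 3 that were among the most abundant transcripts of the table and 3 that had almost no reads. MT-CYB, MT-CO1 and MT-CO2 ranged from 3954 to 11975 FPKM and held ranks 2 to 6 among all transcripts in every library. MT-CO3, MT-ATP6 and MT-ATP8 ranged from 0.03 to 0.34 FPKM, on 1 or 2 reads per library. This split ran through the mRNAs for the 3 mitochondrial subunits of complex IV, and it was present in PC3 and PC3-DR alike.

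**Figure D1:**
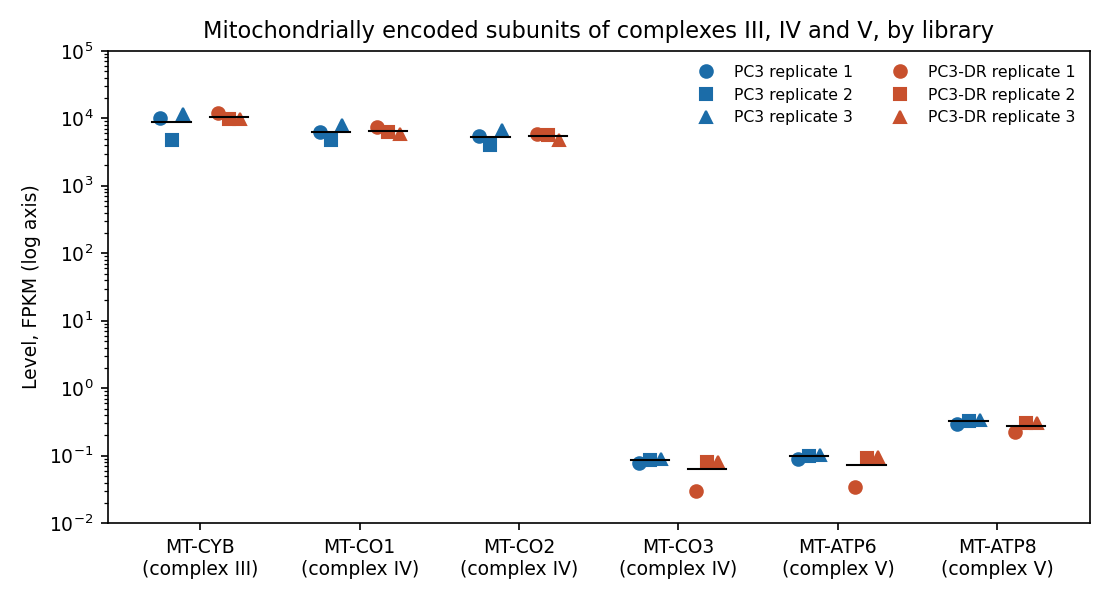
Level of each member in FPKM (log axis) in the 3 PC3 and 3 PC3-DR libraries, with black lines at group means. MT-CYB, MT-CO1 and MT-CO2 lie between 3954 and 11975 FPKM, MT-CO3, MT-ATP6 and MT-ATP8 between 0.03 and 0.34 FPKM, and the groups overlap for every member.

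MT-CYB, cytochrome b, is the only subunit of complex III encoded in the mitochondrial genome, and it was the most abundant member in 5 of 6 libraries. PC3 replicates 1 to 3 had 10040, 4681 and 11520 FPKM of it, and the PC3-DR libraries, in the same order of replicates, had 11975, 9656 and 9909 FPKM. PC3 replicate 2 lay far below the other 5 libraries, and the other PC3 libraries lay inside the PC3-DR range. Mean levels were 8747 ± 3598 FPKM for PC3 and 10513 ± 1272 FPKM for PC3-DR (SD, 3 libraries per line). The difference on the log2(FPKM + 1) scale was 0.36 ± 0.77 (SE), with a 95% interval of -1.35 to 2.07 and an adjusted p of 0.933 (limma, Benjamini-Hochberg over all transcripts tested). These values rest on between 78126 and 589636 reads, so that counting error is small beside the spread between libraries. In RNA from whole cultures, fewer cells or mitochondria with the transcript and less of it in each cannot be told apart.

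MT-CO1 encodes the catalytic core of cytochrome c oxidase, where oxygen is reduced. Its levels were 6303, 4795 and 7828 FPKM in the PC3 libraries, while those of PC3-DR gave 7374, 6275 and 5882 FPKM. The PC3 values enclosed all 3 PC3-DR values. Its means were 6309 ± 1516 FPKM for PC3 and 6510 ± 774 FPKM for PC3-DR (SD, 3 libraries per line), and the log2 difference was 0.07 ± 0.70 (SE), with a 95% interval of -1.49 to 1.63 and an adjusted p of 0.987 in limma.

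MT-CO2 encodes the subunit that takes electrons from cytochrome c and passes them to the catalytic core. The PC3 libraries had 5400, 3954 and 6661 FPKM of MT-CO2 and the PC3-DR libraries 5861, 5586 and 4792 FPKM, again with the PC3-DR values inside the PC3 range. The means were 5338 ± 1355 and 5413 ± 555 FPKM (SD, n = 3 each). The log2 difference was 0.05 ± 0.69 (SE), with a 95% interval of -1.48 to 1.57 and an adjusted p of 0.989 in limma.

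None of the 3 members that passed the filter of 1 FPKM in 3 libraries differed between the lines beyond the spread between libraries. In the same limma fit 1 of 24937 transcripts passed an adjusted p of 0.05, or 0.00401% of those tested, and it was no member. The median log2 difference of the whole tested table was -0.13, so relative to it the members stood at 0.49 for MT-CYB, 0.19 for MT-CO1 and 0.17 for MT-CO2. This sign turned with the filter and the libraries. A filter of 5 FPKM left 794 transcripts with a median of 0.71, and relative to it the same 3 stood at -0.35, -0.64 and -0.66. Without PC3 replicate 2 and PC3-DR replicate 1 they stood at -0.24, -0.31 and -0.32 relative to the median of that fit. The groups overlapped for 3 of 3, as they did for most transcripts: they did not overlap in 11.1% of all tested transcripts. The intervals of this fit are wide and hold changes of more than 1 log2 unit in either direction. Their width comes partly from the intensity trend, by which spread is shared with other transcripts. Without the trend they were -0.59 to 1.31 for MT-CYB, -0.74 to 0.87 for MT-CO1 and -0.76 to 0.86 for MT-CO2. In neither fit do the data show that the levels were equal.

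The sign of the small differences changed with 2 libraries. Without PC3 replicate 2 they were -0.04 for MT-CYB, -0.12 for MT-CO1 and -0.15 for MT-CO2. Without PC3-DR replicate 1 they were 0.26, -0.03 and -0.01 in the same order. With the values rescaled between libraries by the median of ratios they were 0.69, 0.40 and 0.38, with the median of all transcripts at 0.02. That rescaling raises PC3-DR replicate 1 most, with a size factor of 0.59 against between 1.08 and 1.29 in the other 5 libraries. Adjusted p-values in limma stayed between 0.525 and 1 for these members over all 16 alternatives.

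**Figure D2:**
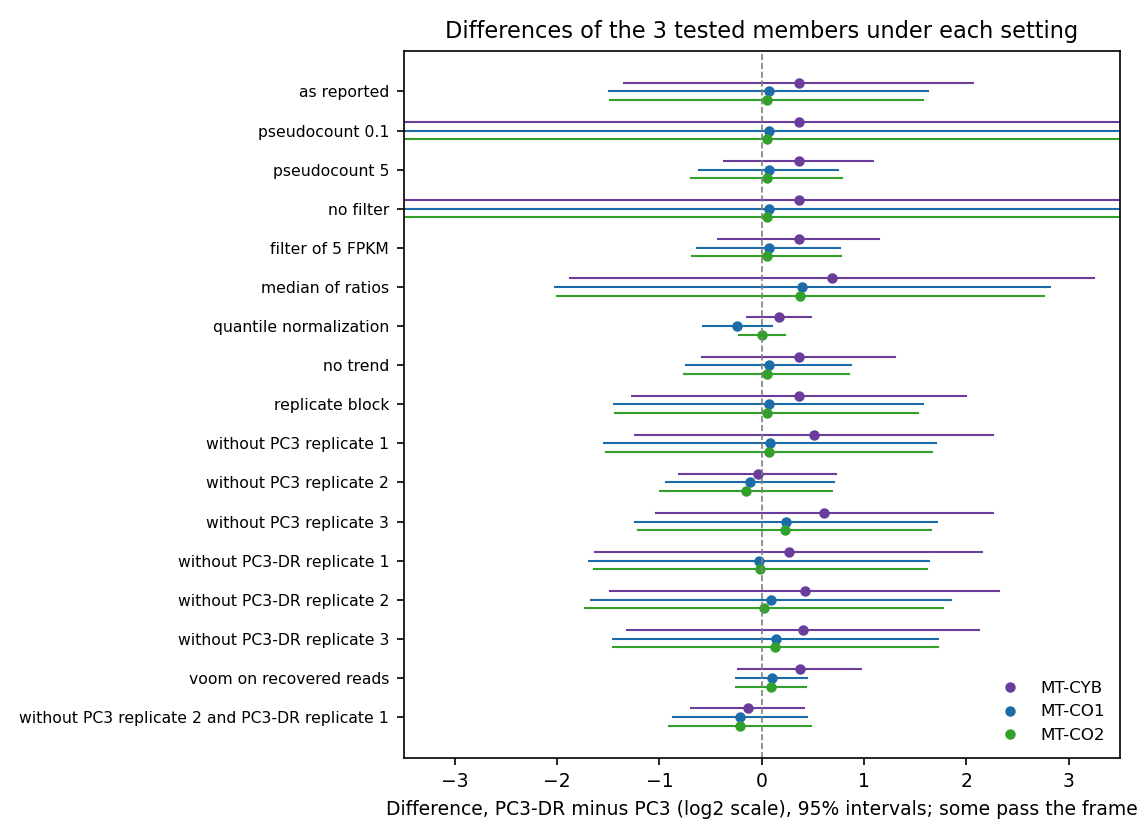
Difference in level, PC3-DR minus PC3, on the log2 scale (points) with 95% intervals (lines) for MT-CYB, MT-CO1 and MT-CO2 under the reported fit, as reported, and 16 alternatives. Intervals for a pseudocount of 0.1 and for no filter run past the frame, and every interval includes 0.

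Within a library, where scaling between libraries has no part, the 3 abundant members kept a similar balance in 5 of 6 libraries. MT-CYB made up 46.2%, 34.9% and 44.3% of the summed member level in PC3 replicates 1 to 3 and 47.5%, 44.9% and 48.1% in PC3-DR replicates 1 to 3. PC3 replicate 2 was the exception: its MT-CYB to MT-CO1 level ratio was 0.976, against 1.59 and 1.47 in the other PC3 libraries and 1.62, 1.54 and 1.68 in PC3-DR. The mean MT-CYB share was 41.8% ± 6.1 for PC3 and 46.8% ± 1.7 for PC3-DR (SD, 3 libraries per line), and the groups overlapped (exact permutation p = 0.2, two-sided, smallest possible 0.1, so that no such test can pass 0.05). Without PC3 replicate 2 the difference in MT-CYB share shrank from 5.07 to 1.61 percentage points.

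Over all 6 libraries the pair from complex IV had the highest correlation among the members. The MT-CO1 to MT-CO2 level ratio was 1.17, 1.21 and 1.18 in PC3 and 1.26, 1.12 and 1.23 in PC3-DR, so MT-CO1 lay above MT-CO2 in 6 of 6 libraries. The ratio averaged 1.19 ± 0.02 for PC3 and 1.20 ± 0.07 for PC3-DR (SD over 3 libraries, exact permutation p = 0.7, two-sided). Of the 3 shares and 3 ratios compared in this way, the lowest exact permutation p was 0.2. Over the 6 libraries, log2(FPKM + 1) of MT-CO1 correlated with that of MT-CO2 at r = 0.974 and with that of MT-CYB at 0.901, and MT-CO2 with MT-CYB at 0.882. These correlations are a description: the members share library totals, and PC3 replicate 2 is the lowest library for all 3. In PC3-DR alone, which leaves that library out, the MT-CYB to MT-CO1 ratio was 1.62 ± 0.07 (SD over 3 libraries). It was thus no less steady there than the MT-CO1 to MT-CO2 ratio.

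In the order of levels, MT-CYB lay above MT-CO1 without overlap of their values in PC3-DR. In PC3 the values overlapped through PC3 replicate 2 alone, which had 4681 FPKM of MT-CYB. PC3 replicates 1 and 3 had 10040 and 11520 FPKM of MT-CYB, above their MT-CO1 levels of 6303 and 7828 FPKM. Taken across libraries, MT-CO1 and MT-CO2 overlapped in PC3. In PC3-DR the lowest MT-CO1 value, 5882 FPKM, lay just above the highest MT-CO2 value, 5861 FPKM. Within every library of both lines MT-CO1 was the higher of the pair.

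**Figure D3:**
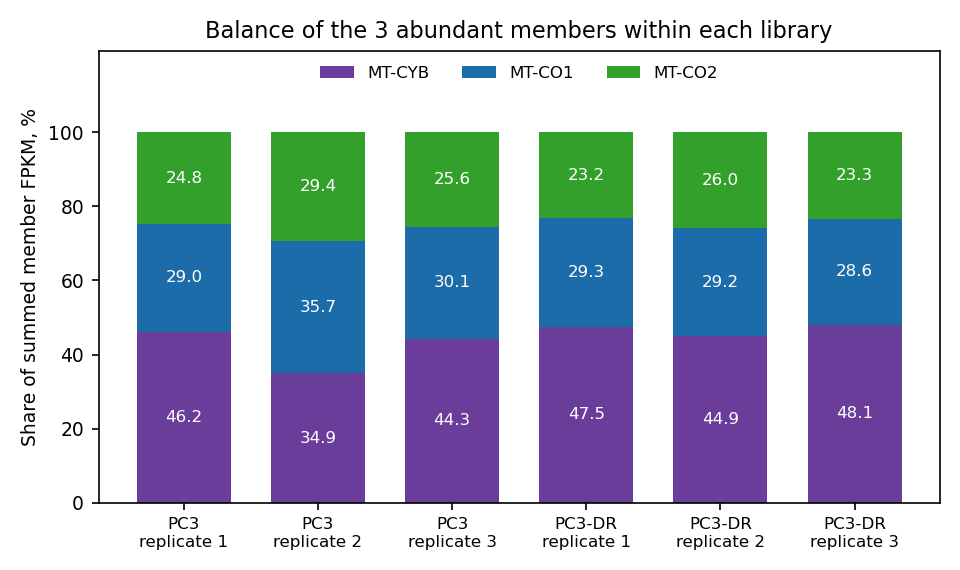
Share of the summed level (FPKM) of the 6 members held by MT-CYB, MT-CO1 and MT-CO2, in percent, 1 bar per library. The MT-CYB share is 34.9% in PC3 replicate 2 and lies from 44.3% to 48.1% elsewhere, and the other 3 members take at most 0.0025% each.

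MT-CO3 encodes the third core subunit of cytochrome c oxidase, which carries no metal centre. The PC3 libraries list it at 0.079, 0.087 and 0.089 FPKM, and the PC3-DR libraries at 0.030, 0.080 and 0.082 FPKM. Each of these 6 values corresponds to exactly 1 read, and the lower value in PC3-DR replicate 1 arises because 1 read there is divided by a total of 43153395. A count of 1 has an exact 95% Poisson interval of 0.03 to 5.57 reads, which covers counting error only.

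MT-ATP6, the subunit that forms the proton channel of ATP synthase, was also at exactly 1 read in every library, or 0.091, 0.10 and 0.102 FPKM for PC3 and 0.034, 0.092 and 0.094 FPKM for PC3-DR. MT-ATP8, a small subunit of the stalk of the enzyme, had 0.298, 0.330 and 0.335 FPKM across the PC3 libraries and 0.224, 0.301 and 0.309 FPKM across those of PC3-DR. These are 1 read in each library except PC3-DR replicate 1, which had 2. With both groups at or under 3 reads per library no fold change between the lines is given, and these 3 members failed the filter for the limma test.

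The gap between these 3 and their neighbour MT-CO2 was far larger than counting error. In PC3 replicate 1 the level of MT-CO2 was 68500 times that of MT-CO3, with a 95% counting interval of 12300 to 2710000. In PC3-DR replicate 3 the ratio was 58600, with an interval of 10500 to 2320000. The lowest ratio of MT-CO2 to any of the 3 was 12000, to MT-ATP8 in PC3 replicate 2, with an interval of 2150 to 473000. Over all 6 libraries MT-CO3 had 6 reads, MT-ATP6 had 6 and MT-ATP8 had 7, while MT-CO2 had 450405.

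The 3 low members are consecutive on the mitochondrial genome. In the RefSeq gene order MT-ATP8, MT-ATP6 and MT-CO3 are the fifth, the sixth and the seventh of the 13 mRNAs, between MT-CO2 and MT-ND3, which had between 39554 and 172992 and between 18565 and 86031 reads per library. In RefSeq MT-ATP6 overlaps both MT-ATP8 and MT-CO3, while MT-CYB, MT-CO1 and MT-CO2 overlap no other gene. MT-ND4, which overlaps MT-ND4L, had 60393 reads or more in each library. MT-ND6 overlaps no other gene and had 5 or 6 reads in each PC3 library. How the counting treated reads on overlapping transcripts is not given in the sources used here, and nuclear pseudogene copies of these genes could take reads too. The values of MT-CO3, MT-ATP6 and MT-ATP8 are therefore uncertain as levels of those mRNAs, and the part of the overlap in them was not tested.

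**Figure D4:**
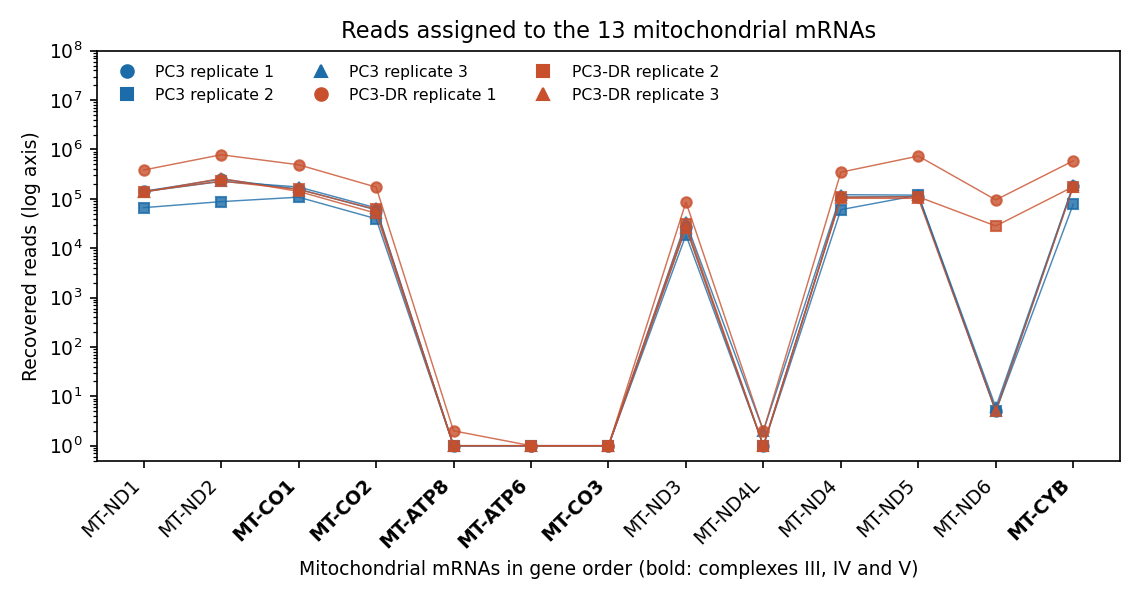
Recovered reads (log axis) for the 13 mitochondrial mRNAs in gene order, 1 line per library, with complex III, IV and V members in bold. Counts drop from between 39554 and 172992 at MT-CO2 to 1 or 2 at MT-ATP8, MT-ATP6 and MT-CO3 in all 6 libraries, return at MT-ND3, and drop again at MT-ND4L and, in 4 libraries, at MT-ND6.

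The other mitochondrial mRNAs, which encode subunits of complex I (NADH dehydrogenase), showed the same split. Of 7, 5 passed the filter, and 0 of these 5 passed an adjusted p of 0.05 in limma. Their log2 differences lay between 0.13 and 0.52, with a median of 0.25 beside -0.13 over all transcripts tested, and none reached an unadjusted p of 0.05. With a filter of 5 FPKM the median of the 794 transcripts left was 0.71, and all 5 lay below it. MT-ND4L was at 1 or 2 reads in every library, like the 3 low members, and in RefSeq it overlaps MT-ND4. MT-ND4 itself stood at 60393 reads or more in each library. MT-ND6 had 4206 FPKM in PC3-DR replicate 1, 3353 FPKM in replicate 2 and 0.61 FPKM in replicate 3, against 0.59, 0.65 and 0.79 FPKM for PC3, so that PC3-DR replicate 3 sat with PC3 and not with its own group.

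The low level of PC3 replicate 2 was shared by most but not all mitochondrial mRNAs. MT-ND4, with 4864, 2996 and 6112 FPKM across the PC3 libraries and 5840, 4886 and 4769 FPKM across those of PC3-DR, followed the mean log2 profile of the 6 members more closely than any other of 24934 transcripts (Pearson r = 0.990 over 6 libraries). The transcripts next in order, ENST00000442510 (r = 0.989) and ENST00000267569 (r = 0.963), carry no gene name in the sources used here. They were at 0 FPKM in PC3 replicate 2 and between 1.21 and 2.85 FPKM elsewhere, so their likeness rests mainly on that library. MT-ND5 did not follow: it was at 4475 FPKM in PC3 replicate 2, between the other PC3 values of 3799 and 4557 FPKM, and at 9419 FPKM in PC3-DR replicate 1 against 3789 and 3619 FPKM in the other PC3-DR libraries.

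Together the 6 members took 2.34% ± 0.73 of the library total for PC3 and 2.57% ± 0.29 for PC3-DR (SD, 3 libraries per line), nearly all of it from MT-CYB, MT-CO1 and MT-CO2. By library this share was 2.49%, 1.54% and 2.98% in PC3 and 2.90%, 2.45% and 2.37% in PC3-DR. The inferred total is larger than the reads recovered from this table. Recovered reads were 3678914 of 16185936 in PC3 replicate 1 and 9082493 of 43153395 in PC3-DR replicate 1. A share of the total is thus lower than a share of the recovered reads. The 6 members made up 16.1% ± 4.4 (PC3) and 16.2% ± 1.7 (PC3-DR) of the summed FPKM of the mRNA table, and all 13 mitochondrial mRNAs made up 42.9% ± 11.7 and 47.7% ± 6.9 (SD, n = 3 each).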

How the data were processed

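RNA of 3 PC3 and 3 PC3-DR libraries was sequenced, and the authors deposited normalized tables of mRNA and lncRNA transcripts, of which the mRNA table was used. Per the submitters' processing notes, which give neither roles nor versions, HISAT2, TopHat2, StringTie and featureCounts were among the tools, with bcl2fastq, fastp, FastQC, DESeq and limma listed too, and the build is mm9. Neither the annotation nor the strand setting is given in the sources used here. No header names the unit. The deposited values have the structure of FPKM: for 71087 of the 71088 transcripts listed above 0 in 3 or more libraries, a whole length between 100 and 60000 nt gave whole reads in every library, within 0.035 of a read. Totals and reads are therefore inferred, and a read here may be a fragment. This recovery and the test were tested on simulated data. 0 columns belonged to no sample.

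Transcripts that reached 1 FPKM in 3 or more libraries were tested on log2(FPKM + 1) with limma 3.58.1 (R 4.3.3), with a term for group, an intensity trend and p-values adjusted over all of them by Benjamini-Hochberg, at 0.05. Fold changes on this scale understate low transcripts. Shares and ratios were compared with exact permutation tests (SciPy 1.17.1). Alternatives covered the pseudocount, the filter, scaling, the trend, each library left out in turn and a replicate block. The fit with limma's voom on recovered reads and the fit without PC3 replicate 2 and PC3-DR replicate 1 were chosen after seeing the data. The members and lists were chosen with earlier results of these data known. All 6 members were named, and transcripts alike in profile were the 3 with the highest correlation. At most 0.002% of values above 0 were equal between any pair of libraries, so all were kept. Lists of nuclear subunits and of mitochondrial RNA processing genes were not analysed here, because the sources used here pair no transcript identifier with a nuclear gene name. Identifiers of the complex I mRNAs came from a list written for this work, and their recovered lengths matched RefSeq (GRCh38.p14), which was used for names, gene order, overlaps and lengths. Figures were drawn with matplotlib 3.10.9.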

Additional observations from a re-analysis of the deposited data

How the results depend on the processing

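No alternative brought MT-CYB, MT-CO1 or MT-CO2 past an adjusted p of 0.05 in limma. The differences kept their direction in 14, 12 and 12 of 16 alternatives. After quantile normalization that of MT-CO2 was 0 and that of MT-CO1 turned to -0.24. Quantile normalization sets each value by its rank, and these members held ranks 2 to 6 in every library. Its differences therefore show changes of rank only, not of level. Leaving out single libraries gave between -0.04 and 0.61 for MT-CYB, between -0.12 and 0.24 for MT-CO1 and between -0.15 and 0.22 for MT-CO2. The lowest of each came without PC3 replicate 2. Without PC3-DR replicate 1 MT-CO1 was at -0.03 and MT-CO2 at -0.01. Without both libraries the differences were -0.14, -0.21 and -0.21. The cause was not tested. SEs moved with the setting: for MT-CYB the SE was 0.77 as reported, 0.42 without the trend and 6.23 with a pseudocount of 0.1. It was 0.26 with voom and 0.14 after quantile normalization, where values set by rank lose the spread in level between libraries.

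Shares of MT-CYB, MT-CO1 and MT-CO2 kept their direction without any single library, at between 1.61 and 7.27, between -3.90 and -0.55 and between -3.36 and -1.06 percentage points. The count over all transcripts, 1 as reported, was 0 under the median of ratios, without the trend, with voom, unfiltered, filtered at 5 FPKM, with a pseudocount of 5 or 0.1, and without PC3 replicate 2 and PC3-DR replicate 1 together, where 57 to 3691 transcripts had an unadjusted p under 0.05 in limma. Leaving out single libraries gave between 0 and 1. The replicate block left the differences at 0.36, 0.07 and 0.05 with adjusted p-values of at least 0.921 and gave 0 calls in limma, with 1707 transcripts under 0.05 unadjusted. The deviations of libraries with the same number had correlations of 0.192, -0.004 and 0.093, so the numbers were not taken as pairs. MT-CO3, MT-ATP6 and MT-ATP8 fail the filter, so the reported fit holds no estimate for them. The unfiltered fit does, but at 1 or 2 reads per library its values follow the library totals. The total of PC3-DR replicate 1, 43153395, lowers them most. MT-ATP8 had 2 reads there and 1 elsewhere, yet its FPKM was lowest there. The unfiltered values are therefore not given as differences. Shares of these members, at most 0.0025%, were not compared between the lines. With 1 or 2 reads per library no difference between the lines can be read from them.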

Other observations

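Among transcripts above 0 in all 6 libraries, counts as low and even as those of MT-CO3 and MT-ATP6 were rare. Transcripts at 0 in any library are left out here, so these shares do not show how common low counts are in the whole table. Of 24767 transcripts above 0 in all 6 libraries with recovered reads, 11 had exactly 1 read in each library, or 0.0444%, and 49 had 1 or 2 reads in each, or 0.198%. MT-CO3 and MT-ATP6 are among the 11, and MT-ATP8 and MT-ND4L are among the 49. Read numbers above 0 had a median of 15 in 5 libraries and of 21 in PC3-DR replicate 1. These counts were made after the member values were seen.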
